A study of Vitis vinifera with 36 samples.

Results

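The 5 genes described here encode enzymes of the flavonoid route in grapevine (Vitis vinifera), from its entry to proanthocyanidins: the phenylalanine ammonia-lyase gene PAL (VIT_06s0004g02620), the chalcone isomerase gene VviCHI2 (VIT_13s0067g02870), the flavanone 3-hydroxylase gene F3H2 (VIT_18s0001g14310), a flavonol synthase gene FLS (VIT_18s0001g03430) and the anthocyanidin reductase gene VviANR (VIT_00s0361g00040). They were taken because the study's gene tables pair each of them with 1 probe of the array, so that 5 of 26688 probes are described, and all 5 were among the 23068 probes that passed the filter on dim signals. RNA of ovules and developing seeds was hybridised to 36 one-colour arrays, 3 for each of 3 table grape varieties at 4 stages. The varieties were Red Globe (RG, seeded), Italia (IT, seeded) and Thompson Seedless (TS, seedless, in which seed development stops early), all field grown under standard vine care with no hormone applied. They were sampled before bloom (pre-bloom, S1), after it (post-bloom, S2), at pea-sized berries (S3) and at the onset of berry ripening (veraison, S4), and at pre-bloom the material was ovules dissected from flowers. Seedlessness is represented by 1 variety, so that it cannot be told apart from other differences between TS and the seeded varieties, and the samples are whole ovules or seeds, in which fewer cells of a type and less RNA per cell cannot be told apart.

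The route starts when phenylalanine ammonia-lyase turns phenylalanine into cinnamic acid, which coenzyme A ligases and chalcone synthase carry on to a chalcone. Chalcone isomerase closes the chalcone to a flavanone, and flavanone 3-hydroxylase makes a dihydroflavonol of it, which flavonol synthase turns into flavonols, while dihydroflavonol reductase leads on to anthocyanidins. Anthocyanidin reductase and leucoanthocyanidin reductase provide flavan-3-ols, the building blocks of the proanthocyanidins (condensed tannins) that accumulate in the grape seed coat.

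Each value is the log2 of a probe's signal minus the log2 of the 75th percentile of signals on that array, so that 0 is the 75th percentile, and levels are compared within a gene only. A difference was called where limma's p-value, adjusted over all 23068 probes by the Benjamini-Hochberg method, was under 0.05 and the log2 difference was over 1 either way. All 5 probes were well above background on all 36 arrays and none was saturated. The 75th percentile of raw intensity ranged from 288.8 to 759.9 on RG arrays, 100.4 to 1359 on IT arrays and 282.1 to 840.6 on TS arrays, and the dimmest array, IT S1 replicate 3, had 38.66% of probes well above background. RG and TS shared 7 slides and IT lay on 5 slides of its own, so that IT against RG or TS cannot be told apart from slide against slide. The median difference of all probes tested was 0.30, 0.13, 0.18 and 0.16 for IT over TS from S1 to S4, and no larger than 0.09 in size for RG over TS.

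PAL, the entry enzyme, separated the varieties mainly at veraison, when its signal was high in IT and low in RG. In RG the PAL signal was 3.57, 4.93 and 2.43 at S1, 2.91, 2.79 and 1.91 at S2, 4.49, 4.28 and 4.26 at S3, and -2.37, 1.86 and -0.13 at S4. In IT it was 4.33, 2.57 and 4.91 at S1, 0.70, 1.55 and 1.13 at S2, 5.40, 5.19 and 3.59 at S3, and 5.10, 4.94 and 5.34 at S4. In TS it was 2.80, 3.19 and 1.23 at S1, 2.21, 2.62 and 2.60 at S2, 4.67, 4.15 and 4.08 at S3, and 1.43, 1.14 and 2.19 at S4. At S3 the arrays of the varieties overlapped, whereas at S4 every IT array lay above every RG and TS array, and the RG arrays were spread over more than 4 log2 units (SD 2.12). At S4 PAL was 3.54 log2 units higher in IT than in TS (SE 0.74, 11.6-fold, adjusted p = 0.00055, limma) and RG minus IT was -5.34 (40.5-fold lower in RG, adjusted p = 4.1e-06, limma). RG minus TS was -1.80 at S4 (95% interval -3.32 to -0.28, adjusted p = 0.092, limma, or 0.029 with slide as a random block), a value that RG replicates 1 and 2 decided: it was -0.72 without replicate 1 (adjusted p = 0.62) and -2.84 without replicate 2 (adjusted p = 0.0055), and RG minus IT was -4.26 and -6.38 without them.

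VviCHI2, which makes the flavanone ring, had a higher signal at pea size in both seeded varieties, and at veraison stood above TS in IT alone. Its RG arrays read 5.15, 5.70 and 4.92 at S1, 4.90, 4.60 and 5.51 at S2, 6.73, 7.08 and 7.38 at S3, and 2.09, 3.29 and 4.98 at S4. The IT arrays read 5.59, 4.65 and 5.45 at S1, 5.61, 5.31 and 5.21 at S2, 7.56, 6.98 and 7.32 at S3, and 6.81, 6.55 and 7.61 at S4. The TS arrays read 4.36, 5.45 and 4.60 at S1, 4.29, 4.01 and 5.77 at S2, 5.92, 5.54 and 6.0 at S3, and 2.72, 3.47 and 4.35 at S4. At S3 all RG and IT arrays lay above all TS arrays, and at S4 the IT arrays stood above the others while RG and TS overlapped. The S3 differences from TS, 1.24 in RG and 1.46 in IT, are given with no test because the gene list that paired VviCHI2 with its probe was made from that stage. At S4 VviCHI2 was 3.47 units higher in IT than in TS (SE 0.53, 11.1-fold, adjusted p = 1.1e-05, limma), and RG minus IT was -3.54 (adjusted p = 1.1e-05). RG minus TS at S4 was -0.06, with a 95% interval of -1.14 to 1.02. That value was 0.62 without RG replicate 1 and -0.83 without RG replicate 3, and RG minus IT was -2.86 and -4.30 without them.

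F3H2, which hydroxylates the flavanone, was the only one of the 5 called lower in a seeded variety than in TS, in RG at veraison. In RG the F3H2 signal was 3.21, 3.23 and 2.39 at S1, 3.03, 2.86 and 3.11 at S2, 4.76, 5.0 and 4.85 at S3, and 1.41, 1.59 and 1.04 at S4. In IT it was 3.28, 2.02 and 2.64 at S1, 3.59, 3.57 and 3.12 at S2, 5.08, 4.41 and 3.96 at S3, and 4.73, 4.54 and 5.51 at S4. For TS the values were 2.83, 2.24 and 2.80 at S1, 3.82, 3.96 and 3.98 at S2, 4.75, 4.89 and 4.57 at S3, and 4.19, 4.22 and 3.08 at S4. The 3 varieties overlapped at S1 and S3, both seeded varieties lay below TS at S2, and at S4 the groups were apart, with IT highest, TS between and RG lowest. RG minus TS at S4 was -2.49 (SE 0.34, 5.6-fold, adjusted p = 3.7e-06, limma), and on the 3 slides that held both it was -2.78, -2.63 and -2.04. IT minus TS at S4 was 1.09 (SE 0.34, 2.13-fold, adjusted p = 0.014, limma), and its call was lost without IT replicate 3 (0.80, adjusted p = 0.089) or TS replicate 3 (0.72, adjusted p = 0.096). It was also lost with quantile normalisation (0.88), normexp background correction (0.94), array weights (0.54), no scaling (1.25, adjusted p = 0.23, limma) and in a fit of only the groups compared (adjusted p = 0.12, limma). Between the seeded varieties RG minus IT was -3.58 at S4 (12-fold, adjusted p = 1.3e-08). At S2, the stage of the list that paired F3H2, the differences from TS were -0.92 in RG and -0.50 in IT.

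FLS, which draws dihydroflavonols into flavonols, was higher than in TS in both seeded varieties at veraison and had the largest difference from TS of the 5 genes. The RG arrays gave -0.47, 0.26 and -1.74 at S1, -0.90, -1.20 and -1.16 at S2, 2.87, 2.76 and 3.18 at S3, and 0.54, 0.44 and 1.25 at S4. The IT arrays gave -0.43, -1.06 and -0.14 at S1, -2.23, -1.28 and -1.80 at S2, 1.54, 1.73 and 0.39 at S3, and 2.53, 2.60 and 3.38 at S4. The TS arrays gave -1.71, -0.38 and -2.09 at S1, -0.87, -1.17 and -0.67 at S2, 1.57, 0.61 and 0.75 at S3, and -2.95, -1.26 and -2.52 at S4. At S3 RG stood above IT and TS, which overlapped, and at S4 the groups were apart in the order IT, RG, TS. At S4 FLS was 5.08 units higher in IT than in TS (SE 0.49, 33.9-fold, adjusted p = 8.8e-09, limma) and 2.99 units higher in RG than in TS (SE 0.49, 7.93-fold, adjusted p = 4.5e-05, limma). RG exceeded TS on each of the 3 shared slides at S4, by 3.49, 1.70 and 3.77. With normexp background correction, which lifts dim signals, the S4 differences were 3.99 in IT and 2.04 in RG. At S3 RG minus TS was 1.96 and IT minus TS 0.24, with no test, that stage having paired the gene. RG minus IT was 1.72 at S3, or 1.30 without IT replicate 3. These values are given with no test because they share the RG arrays of that stage. At S4 RG minus IT was -2.10 (adjusted p = 0.0016, limma).

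VviANR, which makes the epicatechin units of condensed tannins, was well above the 75th percentile in every group from S1 to S3 and stayed so at veraison only in IT. In RG the VviANR arrays read 4.49, 6.30 and 4.86 at S1, 4.07, 3.77 and 4.70 at S2, 5.49, 5.53 and 5.49 at S3, and -0.46, 1.67 and 2.79 at S4. In IT they read 5.90, 4.71 and 5.98 at S1, 3.90, 4.48 and 3.85 at S2, 6.96, 6.54 and 5.92 at S3, and 5.46, 5.27 and 6.26 at S4. In TS they read 3.57, 5.26 and 3.52 at S1, 3.45, 3.16 and 4.90 at S2, 4.83, 4.34 and 4.67 at S3, and 0.25, 1.29 and 2.64 at S4. Both seeded varieties lay above TS without overlap at S3, and at S4 IT lay above RG and TS, whose ranges overlapped. At S3 VviANR was 1.85 units higher in IT than in TS (SE 0.66, 3.62-fold, adjusted p = 0.029, limma), a call lost on leaving out IT replicate 1 (1.61, adjusted p = 0.099), IT replicate 2 (1.82, adjusted p = 0.069), TS replicate 2 (1.72, adjusted p = 0.087) or TS replicate 3 (1.88, adjusted p = 0.06). RG minus TS at S3 was 0.88 (95% interval -0.47 to 2.24, adjusted p = 0.36), and 1.16 with slide as a fixed term (adjusted p = 0.037, limma). At S4 VviANR was 4.27 units higher in IT than in TS (SE 0.66, 19.3-fold, adjusted p = 1.5e-05, limma), or 4.89 without TS replicate 3. RG minus IT at S4 was -4.33 (adjusted p = 1.5e-05), or -3.43 without RG replicate 1 and -5.06 without RG replicate 3, and RG minus TS was -0.06 (95% interval -1.41 to 1.30). The last value was 0.84 without RG replicate 1, -0.79 without RG replicate 3 and 0.57 without TS replicate 3. At S1, the stage of the list that paired both PAL and VviANR, PAL was 1.24 higher in RG and 1.53 higher in IT than in TS, and VviANR 1.1 and 1.41 higher, with overlapping arrays in each case. Without single S1 arrays the PAL value lay between 0.59 and 1.85 for RG and between 0.94 and 2.22 for IT.

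**Figure D1:**
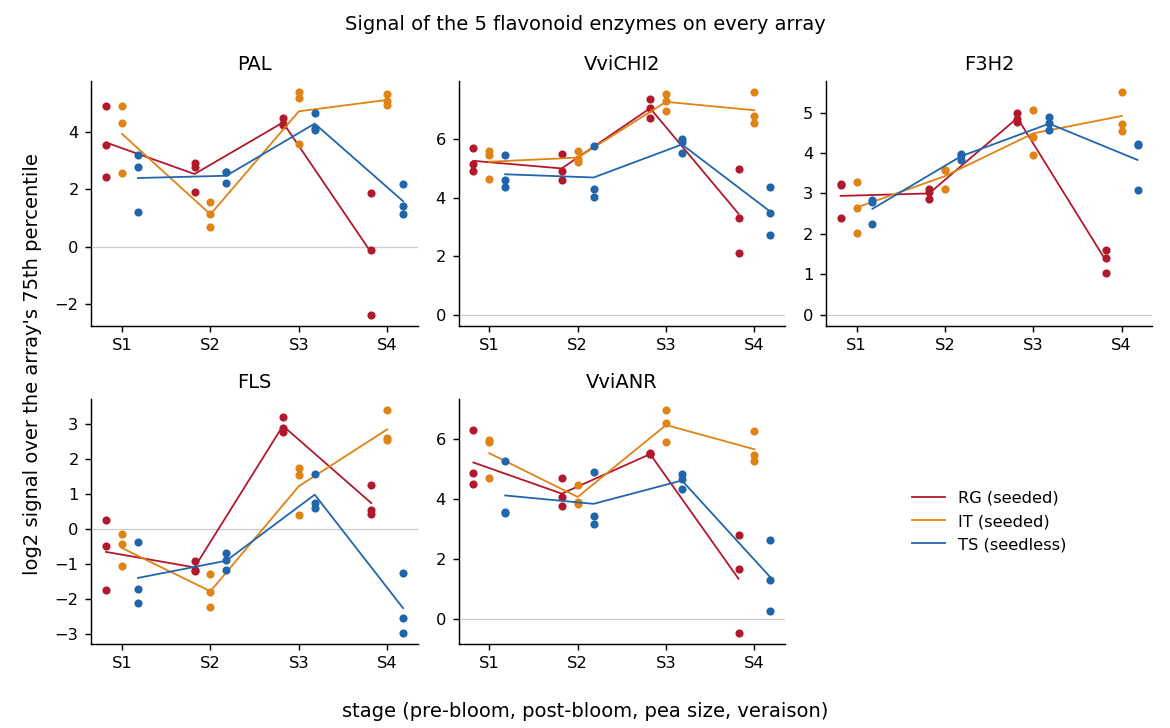
Scaled log2 signal, with 0 at the array's 75th percentile, is plotted for each of the 5 genes against stage, with a point for each array (RG red, IT orange, TS blue) and lines joining the means of 3 arrays. At S4 the IT points of all 5 genes lie above the TS points, and the RG points of PAL spread between -2.37 and 1.86.

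Counted over the 4 stages, 3 of the 20 differences between RG and TS were called, FLS higher at S3 and S4 and F3H2 lower at S4, and 7 of the 20 between IT and TS, all higher in IT: VviCHI2 and VviANR at S3 and all 5 genes at S4. FLS in RG and VviCHI2 in IT at S3 are among the contrasts that chose the genes, and nothing is read from their calls. At S1 and S2 no member was called in either seeded variety, while the share of all probes called was 5.61% at S1 and 4.96% at S2 for RG against TS, and 12.1% at S1 and 11.2% at S2 for IT against TS. At S3 the shares of all probes called were 23.6% in RG and 33.8% in IT. Of the 3 genes not paired through that stage (PAL, F3H2 and VviANR), none was called in RG and 1, VviANR, in IT. At S4, 2 of 5 were called in RG, beside 16.9% of all probes, and 5 of 5 in IT, beside 29.2%. The median difference of the 5 genes at S4 was 3.54 for IT over TS and -0.06 for RG over TS. RG against IT gave 6 calls of 20, FLS higher in RG at S3, where 29.5% of all probes were called, and all 5 lower in RG at S4, where 29.3% were called. Nothing is read from that FLS call at S3, which rests on arrays of the stage that paired the gene. The 3 comparisons share arrays, since the TS arrays serve both seeded varieties and the seeded arrays serve again against each other. With 3 arrays against 3 an exact permutation test cannot give a two-sided p below 0.1, so that no single difference could pass 0.05 by that test.

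**Figure D2:**
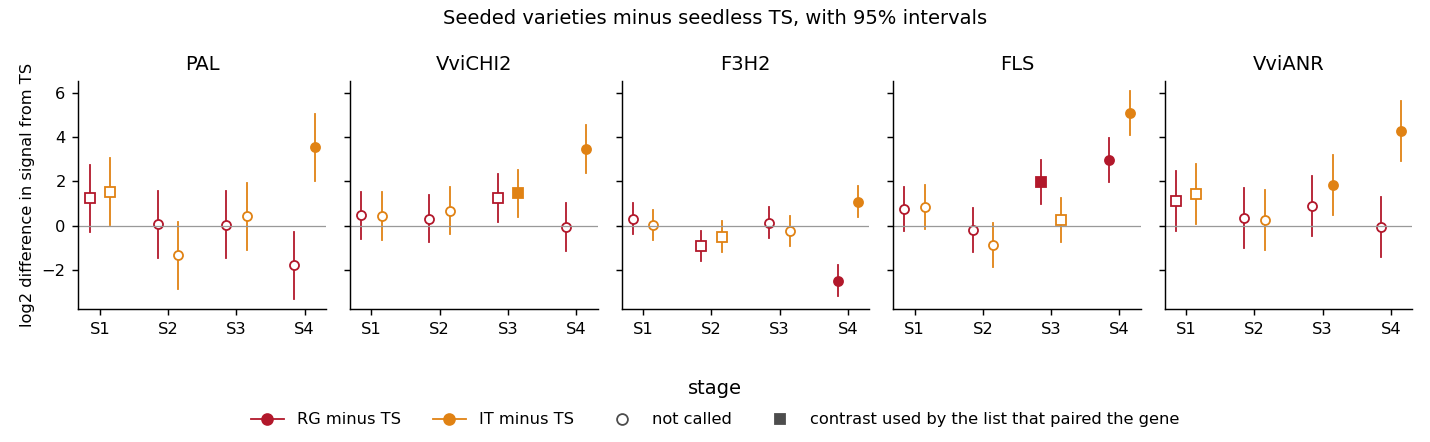
The difference in log2 signal from TS is plotted for RG (red) and IT (orange) at each stage in 5 panels, 1 per gene, as a point with its 95% interval; filled symbols were called, open symbols were not, and squares mark contrasts used by the list that paired the gene. At S4 the IT points lie between 1.09 and 5.08, and the RG points between -2.49 and 2.99.

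Between stages the mean signals of all 5 genes were higher at pea size than post-bloom in every variety, and those of RG and TS were lower again at veraison. Changes that involve the stage that paired a gene (S1 for PAL and VviANR, S2 for F3H2, S3 for VviCHI2 and FLS) share its arrays and are not independent of the choice of that gene. From S1 to S2 no member was called in RG, where 0.815% of all probes were called. Over the same step PAL fell by 2.81 in IT, where 8.51% of all probes were called, and F3H2 was 1.30 higher at S2 in TS, where 3.37% were called. Both values are given with no test, and nothing is read from their calls. The PAL value rests on the IT arrays, and the F3H2 value on the TS arrays, of the stage that paired the gene. The PAL call also rested on single arrays. It was lost without IT S1 replicate 1 (-2.61), IT S1 replicate 3 (-2.32) or IT S2 replicate 1 (-2.60), and the change was -3.49 without IT S1 replicate 2.

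From S2 to S3 all 15 changes were positive, and 9 of them were called, 3 in RG, 5 in IT and 1 in TS. The background at this step was 13.6% of all probes called in RG, 8.91% in IT and 13.0% in TS. FLS moved furthest in RG, rising by 4.02 (SE 0.49, 16.3-fold), and it also rose by 2.99 in IT and by 1.88 in TS. PAL rose by 3.60 in IT (adjusted p = 0.0022, limma), while its changes of 1.81 in RG and 1.82 in TS did not pass the test (adjusted p = 0.10 each). The rise of VviCHI2 was 2.06 in RG, against 1.91 in IT. That of F3H2 was 1.87 in RG, against 1.06 in IT. For FLS, VviCHI2 and F3H2 the changes at this step are given with no test in every variety. They rest on arrays of the stage that paired the gene, and nothing is read from their calls. VviANR rose by 2.40 in IT (adjusted p = 0.019), with 1.32 in RG and 0.78 in TS not called. In TS VviCHI2 changed by 1.13 and F3H2 by 0.81, neither called. Several of these calls were close to the threshold. Without single IT arrays the IT changes were 0.76 to 1.14 for F3H2 where the call was lost (S2 replicates 1, 2 or 3 or S3 replicates 1 or 2), 1.77 to 1.88 for VviCHI2 (S2 replicates 2 or 3 or S3 replicate 1) and 2.15 to 2.36 for VviANR (S2 replicates 1 or 3 or S3 replicates 1 or 2). The F3H2 change in IT was 0.96 with quantile normalisation and 0.99 with slide as a random block, neither called. The FLS change in TS was 1.59 without S3 replicate 1, and VviCHI2 in TS was 1.67 without S2 replicate 3. With slide as a fixed term over the RG and TS arrays, VviANR was 1.91 in RG, called (adjusted p = 0.011, limma). In that fit FLS in TS was 1.41, and VviCHI2 was 1.63 in TS and 2.86 in RG, given with no test.

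Between pea size and veraison the varieties parted. In RG all 5 genes fell, beside 31.4% of all probes called by limma at this step. PAL fell by 4.56 (adjusted p = 1.5e-05), F3H2 by 3.53 (adjusted p = 2.7e-09) and VviANR by 4.17 (adjusted p = 1.1e-05, limma). VviCHI2 fell by 3.61 and FLS by 2.20, given with no test, since they rest on the RG arrays of the stage that paired both genes. In TS all 5 also fell and 4 were called, beside 24.6% of all probes. PAL fell by 2.71 (adjusted p = 0.0063) and VviANR by 3.22 (adjusted p = 0.00046, limma). In TS VviCHI2 fell by 2.31 and FLS by 3.22, given with no test, since they rest on the TS arrays of the stage that paired both genes. F3H2 in TS changed by -0.90 (adjusted p = 0.043), under the limit of 1, and it passed that limit without TS S4 replicate 1 (-1.08) or replicate 2 (-1.1). In IT 1 of 5 was called, beside 24.7% of all probes: FLS rose by 1.62 (SE 0.49, 3.06-fold). That value is given with no test, since it rests on IT arrays of the stage that paired FLS, and nothing is read from its call. The FLS rise in IT was seen on each of 3 slides that held both stages (0.87 to 2.98), but its call was lost without IT S3 replicate 3 (1.20) or IT S4 replicate 3 (1.35). It was 0.61 with no scaling and 1.0 with array weights. The other IT changes were 0.40 for PAL (95% interval -1.12 to 1.92), -0.29 for VviCHI2 (-1.37 to 0.78), 0.44 for F3H2 (-0.25 to 1.13) and -0.81 for VviANR (-2.16 to 0.55). For VviCHI2 the IT change was -1.04 with quantile normalisation and -1.30 with no scaling, neither called, and for VviANR it was -1.82 with no scaling, not called, and -1.11 with array weights, which was called (adjusted p = 0.0087, limma). RG S4 replicates differed widely for 3 genes: the RG change was -3.48 for PAL, -2.93 for VviCHI2 and -3.27 for VviANR without replicate 1, and all 3 were still called. Without replicate 2 the PAL change was -5.59, and without replicate 3 VviCHI2 changed by -4.37 and VviANR by -4.89. VviANR in TS changed by -3.85 without TS S4 replicate 3.

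**Figure D3:**
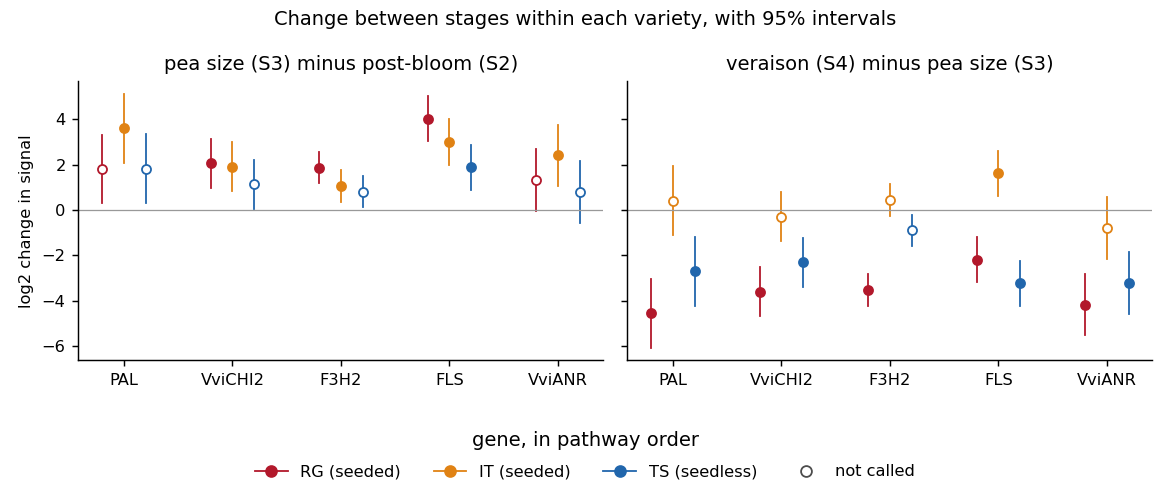
The change in log2 signal is plotted for the 5 genes from post-bloom to pea size (left) and from pea size to veraison (right), as points with 95% intervals for RG (red), IT (orange) and TS (blue). Filled points were called, and include changes at the stage that paired a gene. In the right panel the RG and TS points lie between -4.56 and -0.90, and the IT points between -0.81 and 1.62.

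Whether a change differed between varieties was tested directly. The S3 to S4 change of PAL was 3.11 units higher in IT than in TS (SE 1.05, adjusted p = 0.04, limma). That of FLS was 4.84 units higher (SE 0.69), given with no test because S3 paired that gene. With FLS, 2 of 5 genes were called, beside 16.7% of all probes. The difference for PAL lost its call on leaving out any of IT S3 replicate 3, IT S4 replicates 1, 2 or 3, TS S3 replicates 1, 2 or 3 or TS S4 replicates 1 or 2, with values of 2.54 to 3.22 and adjusted p of 0.06 to 0.11, and it was lost with quantile normalisation (2.86, adjusted p = 0.051) and no scaling (2.72, adjusted p = 0.18). The S3 differences between IT and TS given above for FLS and VviCHI2 enter these values by subtraction, and that stage paired both genes. For VviCHI2, F3H2 and VviANR the change in IT exceeded that in TS by 2.01, 1.34 and 2.42 (adjusted p of 0.052 for F3H2 and 0.076 for VviANR, limma). No test is given for VviCHI2, which S3 paired, and nothing is read from its calls. With slide as a random block all 3 were called (2.34, 1.27 and 2.88, adjusted p of 0.022 for F3H2 and 0.0022 for VviANR, limma), as with scan day as a random block (2.25, 1.25 and 2.71). They also passed without some single arrays: VviCHI2 and VviANR without TS S4 replicate 3 (2.43 and 3.04), and F3H2 without IT S3 replicate 1, IT S4 replicate 2 or TS S4 replicates 1 or 2 (1.52 to 1.64). In RG the S3 to S4 change of F3H2 was 2.62 units below that in TS (-2.62, SE 0.48, adjusted p = 0.00018, limma), the 1 call of 5 beside 20.9% of all probes, or -2.86 with no scaling (adjusted p = 0.058). The other RG values were -1.85 for PAL, -1.30 for VviCHI2, 1.03 for FLS and -0.94 for VviANR, none called. Without RG S4 replicate 2 the PAL value was -2.88 (adjusted p = 0.033). Without RG S4 replicate 3 the VviCHI2 value was -2.07, given with no test because S3 paired that gene. From S2 to S3 the FLS change in RG exceeded that in TS by 2.14 (SE 0.69), 2.30 with slide as a random block and 2.48 with slide as a fixed term, given with no test because the S3 difference of 1.96 between RG and TS, part of these values, belongs to the list that paired FLS.

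The order of the 12 group means showed where each gene was highest. Means of PAL ranged between 5.13 ± 0.20 in IT at S4 and -0.21 ± 2.12 in RG at S4 (SD, n = 3 each), and no neighbours in its order differed (adjusted p of 0.13 or more). VviCHI2 was highest in IT at S3 (7.28), followed by RG at S3 (7.06) and IT at S4 (6.99), and lowest in TS (3.52) and RG (3.45) at S4, again with no neighbours that differed. F3H2 was highest in IT at S4 (4.92) and lowest in RG at S4 (1.34 ± 0.28), and the only neighbours that differed were TS at S1 (2.62) and RG at S4 (adjusted p = 0.0031). The FLS order ran from RG at S3 (2.94) and IT at S4 (2.84) down to TS at S4 (-2.25), and 2 pairs of neighbours differed. They were RG at S4 and IT at S1 (adjusted p = 0.03), and IT at S4 and IT at S3, given with no test because S3 paired FLS. VviANR was highest in IT at S3 (6.47) and lowest in TS (1.39) and RG (1.34) at S4, and TS at S2 (3.84) differed from TS at S4 (adjusted p = 0.0054), all by limma. RG at S4 had the lowest mean of PAL, VviCHI2, F3H2 and VviANR, but differed from the next group for F3H2 alone: the adjusted p was 0.13 against IT at S2 for PAL, and 0.98 and 0.99 against TS at S4 for VviCHI2 and VviANR (limma), 2 differences that changed sign with single arrays left out.

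Across the 12 group means, which share arrays, slides and scaling, the pairs most alike in pattern were VviCHI2 and VviANR (Pearson's r = 0.90), PAL and VviANR (0.87) and PAL and VviCHI2 (0.85). FLS was least like VviANR (0.48) and F3H2 (0.50), and F3H2 and VviANR gave 0.52. Among all probes tested, the probe named CHS (chalcone synthase, the step between PAL and VviCHI2) was second in likeness to PAL (r = 0.981). For VviCHI2 the nearest probe with a gene was VIT_00s0391g00070, annotated as 3-deoxy-D-arabino-heptulosonate 7-phosphate synthase, the first enzyme of the shikimate route to phenylalanine (r = 0.961), and for FLS it was VIT_04s0023g03820, annotated as 3-dehydroquinate synthase, the next enzyme of the shikimate route (r = 0.92). VIT_11s0052g01090, a 4-coumarate-CoA ligase gene of the pathway list, was also among the 5 nearest to FLS (0.912). The nearest probe with a gene for VviANR was VIT_14s0108g01660, a biotin carboxyl carrier protein of acetyl-CoA carboxylase, the enzyme that makes malonyl-CoA (0.948), and for F3H2 a gene of unknown function, VIT_09s0018g01970 (0.915). The other annotated probes among the 5 nearest were of mixed function. For FLS it was the MADS-box gene VviMADSD2a (0.914), and for VviCHI2 a 3-hydroxyisobutyryl-CoA hydrolase (0.933). For VviANR they were a nodulin MtN21 (0.945) and a serine carboxypeptidase (0.94). For F3H2 they were an NADH dehydrogenase subunit (0.895), an aspartic protease (0.889), a ribosomal protein (0.881) and a COP-I subunit (0.88). These are descriptions over 12 means, picked as the highest of 23068 probes.

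Other genes of the route were described from a list of 24, with 12 genes annotated as 4-coumarate-CoA ligases (4CL), 10 other enzymes and the regulators VvMybPA2 and VvMybF1. All but the 4CL genes come from gene lists that the study drew from these samples, so that their counts, differences and p-values are no independent evidence. In RG 22 of 96 differences from TS over the 4 stages were called (17 higher, 5 lower), and in IT 30 of 96 (27 higher, 3 lower). By stage the list gave 2, 2, 12 and 6 calls of 24 for RG and 5, 4, 8 and 13 calls of 24 for IT, against the shares of all probes given above. Of the 10 other enzymes, 7 were called higher in RG at S3 (median log2 difference 1.39, against 0.00 over all probes) and 7 higher in IT at S4 (median 2.40, against 0.16). At S4 in RG only 2 of these 10 were called, 1 in each direction. The 4CL genes gave 10 calls of 48 in RG (7 higher, 3 lower) and 10 of 48 in IT (9 higher, 1 lower). From S1 to S4, 8.33, 16.7, 33.3 and 25.0% of them were called in RG, beside 5.61, 4.96, 23.6 and 16.9% of all probes. In IT the shares were 8.33, 16.7, 16.7 and 41.7%, beside 12.1, 11.2, 33.8 and 29.2% of all probes.

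At S4 some of the other enzymes of the list were also higher in IT than in TS, among them PAL2 (VIT_13s0019g04460), a second phenylalanine ammonia-lyase, by 2.52 (adjusted p = 0.00082, limma), F3H1 (VIT_04s0023g03370), a second flavanone 3-hydroxylase, by 2.50 (adjusted p = 0.003), and the B-ring hydroxylase gene F3'5'H (VIT_08s0007g05160) by 2.92 (adjusted p = 0.0099). A gene annotated as flavonoid 3-monooxygenase (VIT_03s0063g01690) was higher at S4 in both seeded varieties, 24.6-fold in RG (log2 difference 4.62, adjusted p = 7.9e-09) and 13.4-fold in IT (3.75, adjusted p = 1.8e-07). At pea size the largest differences of the list were those of VIT_00s0317g00160, of the chalcone and stilbene synthase family, which averaged 0.16 ± 0.23 in RG, 0.81 ± 1.04 in IT and -6.26 ± 1.40 in TS (SD, n = 3 each), with 1 of the 3 TS arrays well above background. The dihydroflavonol reductase gene DFR (VIT_03s0038g04220) was also higher at S3 in both, by 3.07 in RG and 3.14 in IT. The DFR values are given with no test. Like the other p-values of list genes printed here and below, a test may repeat the choice by which the study listed the gene.

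The leucoanthocyanidin reductase gene LAR1 (VIT_01s0011g02960), which like VviANR provides flavan-3-ol units, did not keep its signal in IT at veraison. It averaged -4.07 ± 0.70 in RG, -0.34 ± 0.52 in IT and -1.59 ± 1.29 in TS at S4 (SD, n = 3 each), and its S3 to S4 change was -7.34 in RG, -4.07 in IT and -3.69 in TS, all called by limma (adjusted p = 4.7e-10, 1.4e-05 and 5.9e-05). LAR1 was lower in RG than in TS at S4 (RG minus TS -2.48, adjusted p = 0.0053). VvMybPA2, a regulator of proanthocyanidin genes, exceeded its TS level in RG at S1 (1.69, adjusted p = 0.00085) and S3 (1.30, adjusted p = 0.0022), and was higher in IT at all 4 stages, at S4 at least 1.91-fold (adjusted p = 0.0014), since none of the TS arrays was well above background there. VvMybF1, a regulator of flavonol synthesis, was called once, lower in RG at S4 (-1.85, adjusted p = 0.04).

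**Figure D4:**
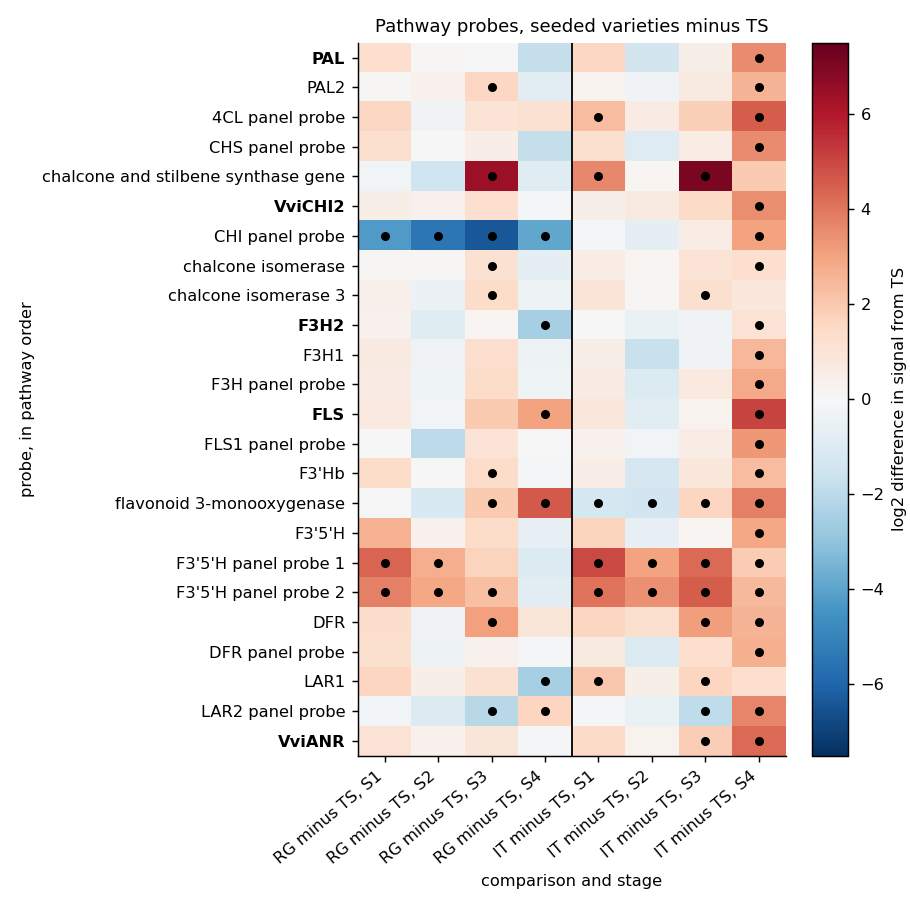
Colour gives the log2 difference in signal from TS (scale at right) for 24 probes of the route from top to bottom in pathway order, with the 5 genes in bold, at 4 stages for RG (left columns) and IT (right columns). Dots mark calls, leaving out only the contrasts that paired the 5 genes in bold. Other genes that came from the study's lists keep the dots of all contrasts, so that these are not free of that choice. In the last column, IT at S4, all 9 panel probes are marked as higher.

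A further 9 probes carry a pathway gene's name on the array itself or through a RefSeq transcript or gene identifier, and were added after values had been seen. All 9 were higher in IT than in TS at S4, among them CHS by 3.54 (11.6-fold, adjusted p = 0.0018, limma), F3H by 2.87 (adjusted p = 0.00053) and LAR2, a second leucoanthocyanidin reductase, by 3.67 (12.8-fold, adjusted p = 2.9e-07). In RG at S4 2 of 9 were called, LAR2 higher by 1.63 (adjusted p = 0.0074) and CHI, a chalcone isomerase, lower. The CHI probe was lower in RG than in TS at all 4 stages (RG minus TS -4.24, -5.44, -6.33 and -3.91 from S1 to S4, all called by limma), and was well above background on 7 of 12 RG arrays (2, 1, 2 and 2 of 3 from S1 to S4), so that these differences rest in part on RG signals near background. VviCHI2 was well above background on every RG array. In RG and IT LAR2 ran against LAR1 between S3 and S4, with changes of 2.73 and 4.59 (adjusted p = 1.1e-05 and 5.6e-09, limma). In TS LAR2 changed by -0.97, not called, in the direction of LAR1. The FLS1 probe, a second flavonol synthase, had its high signals at S1 (1.23 in RG, 1.55 in IT and 1.25 in TS) and was at -3.79, -4.22 and -4.78 at S3, where FLS had its highest mean in RG and in TS. FLS1 fell between S2 and S3 by 4.56 in IT and 5.32 in TS, at adjusted p = 0.004 and 0.00054, the step at which FLS rose in both. The difference between the 2 probes was not tested.

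Marker genes were read beside these results. The ovule identity gene VviAGL11 was detected above background on each of the 36 arrays and at S4 averaged 5.99 in RG, 5.59 in IT and 1.83 in TS. INO, of the outer ovule integument, and EDE1, of the endosperm, were dim, with 26 and 33 of 36 arrays well above background, and INO was not well above background on any RG or TS array at S4. 11S globulin isoform 3, a seed storage protein gene, read 8.97, 8.82 and -1.21 in IT at S4, against averages of -4.21 in RG and -4.04 in TS. On that IT array, low in globulin, the 5 genes were higher than on the other 2 (PAL 5.34, VviCHI2 7.61, F3H2 5.51, FLS 3.38 and VviANR 6.26). Of the genes of other organs, the petal and stamen gene VviAP3a averaged -3.03 in RG, -5.72 in IT and -4.50 in TS at S4. VviAP3b, of the same organs, averaged -0.55 in RG, -1.31 in IT and 1.90 in TS at S4, lower in both seeded varieties (adjusted p = 0.0016 and 5.1e-05, limma). At S3 VviAP3b was higher than in TS by 2.16 in RG and 4.15 in IT, and the fruit wall gene VviFUL2 by 3.97 in RG and 3.30 in IT, all called. VviAP3a was higher by 2.05 in RG, called, and by 0.98 in IT, not called. Ovule and seed markers did not all go the same way at S3. VviAGL11 exceeded TS by 2.29 in RG and 1.21 in IT, and EDE1 by 1.59 and 1.68, all called. INO exceeded it by 2.0 in RG, called, and by 0.52 in IT, not called. For 11S globulin isoform 3, IT minus TS was -4.78 at S3, called as lower, and RG minus TS was 0.55, not called. The part of these organs, and of scan and slide, in the differences of the 5 genes was not tested beyond the slide values given here.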

How the data were processed

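Total RNA of ovules or seeds was labelled with Cy3 by the authors and hybridised to a custom Agilent grape array, and the deposited intensity values are background-subtracted signals per spot from Feature Extraction (version 10.7.1.1 per the file headers), not normalised between arrays; a deposited table of the authors' values served as an alternative. Groups followed the sample labels, which do not say whether replicates came from separate vines, so that p-values measure the spread between these arrays. Unflagged spots of a probe were averaged, with 124 of 26688 probes left out, set against the array's 75th percentile, which the study's methods name, and taken as log2; a probe was tested if 1 or more groups had it well above background on each of their 3 arrays. limma 3.58.1 (R 4.3.3) fitted 12 group means to 36 arrays (24 residual degrees of freedom), and the fit was tested on simulated data. The text names the 5 genes and some of the list genes called in either seeded variety against TS (4CL genes as counts). For each gene it names the probes among the 5 nearest in pattern that have a gene annotation, and for PAL the CHS probe. Genes and lists were chosen with earlier results of these data known. 1 further named pathway probe is not reported here. Alternatives were quantile and no scaling, a percentile over bright probes, normexp background, the deposited table, the filter, fewer groups, slide, scan day or replicate as blocks, array weights, the methods' t-test and each array left out.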

Additional observations from a re-analysis of the deposited data

Results flagged for a closer look

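In 3 cases the change between pea size and veraison in a seeded variety was called as differing from that in TS. The FLS change was 1.62 in IT, against -3.22 in TS, a difference of 4.84 (SE 0.69), given with no test. The PAL change was 0.40 in IT, against -2.71 in TS, a difference of 3.11 (SE 1.05, adjusted p = 0.04, limma). The F3H2 change was -3.53 in RG, against -0.90 in TS, a difference of -2.62 (SE 0.48, adjusted p = 0.00018, limma). FLS was paired with its probe through S3, a stage that enters its difference, so that nothing is read from its call. IT and TS shared no slide. On slides that held both stages the FLS change was 0.87 to 2.98 in IT (3 slides), against -4.52 to -1.88 in TS (2 slides).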

How the results depend on the processing

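Calls of members for RG against TS, 3 of 20 as reported, were 5 with slide as a random or a fixed block and with array weights, and 1 by the methods' t-test after Benjamini-Hochberg. That t-test gave 1 call in place of 7 for IT against TS, and 0 in place of 6 for RG against IT, where its unadjusted p gave 7. Of the 45 stage changes, 21 as reported, 12 were called with no scaling and 4 by the adjusted t-test. Of the 30 differences of a stage change from TS, 3 as reported, 1 was called with no scaling, 5 with the percentile taken over bright probes, 5 with the filter on all arrays, 6 in fits of only the groups compared, 7 with slide and 7 with scan day as a random block, 14 with array weights, and 2 to 5 with single arrays left out. Replicate numbers went in part with slide and scan day. In IT each number had its own scan day, and RG and TS arrays of a number shared slides at S1 and S4. The mean correlation of deviations between groups was 0.115 for same-numbered arrays (between -0.517 and 0.804) and -0.0568 for other numbers. It was 0.318 for arrays on the same slide. The reported fit held no block, and the slide correlation was 0.422 with slide as a random block. With the replicate block, 5 differences of a stage change from TS were called, with the other counts of calls within 1.5 times. For the pathway list, RG against TS gave 9 calls with no scaling, 10 with normexp background, 11 of 60 with the filter on all arrays, 37 with array weights and 11 by the adjusted t-test, in place of 22, and IT against TS gave 14, 16, 13 of 60 and, by the adjusted t-test, 4, in place of 30. The array weights stopped before they converged. The causes were not tested, apart from the fewer probes left by the stricter filter. Some differences near 0 changed sign: RG minus TS at S4 for VviCHI2, -0.06 as reported, was 0.06 with no scaling, 0.18 with normexp background and -0.83 to 0.62 with arrays left out, and for VviANR it was 0.07 with no scaling and -0.79 to 0.84 with arrays left out. The IT change between S3 and S4 was -0.01 (quantile), -0.61 (no scaling), -0.002 (array weights) and -0.17 to 0.73 (arrays left out) for PAL, and -0.57 (no scaling) for F3H2. No called difference of a member changed sign under any alternative run; of 38 called, 11 lost the call in at least 1 set of arrays and 34 in at least 1 other setting, 31 of them by the adjusted t-test and 13 with no scaling. All 5 probes were well above background on all 36 arrays, but FLS differences were smaller with normexp background: at S4 3.99 for IT and 2.04 for RG over TS, and 3.73 for the difference of the IT stage change from TS.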
